A study of Mus musculus with 20 samples.

Results

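The Kruppel-like factors *Klf2*, *Klf3*, *Klf4*, *Klf5*, *Klf6*, *Klf7*, *Klf9*, *Klf10*, *Klf13* and *Klf15* were followed in mouse ovaries. They are 10 of the 54838 genes counted in this series, and all 10 had enough reads to be tested in every comparison. They were picked by name, and the family was chosen because *Klf2* and *Klf3* differed between the mouse lines, or between the lines in a stage-dependent way, in these same libraries. For these 10 genes, the differences between lines, and every difference within 1 line, are therefore given below as measured values without a test of their own. Genes outside the 10 were tested in all comparisons, but their lists were also drawn up with earlier results of these data known. Of these genes, the study had already reported *Esr1* in estrus and *Lhcgr* and *Foxl2* in diestrus from these libraries. Their calls between the lines are therefore no independent support. Of the 10 members, the study had already reported *Klf2* and *Klf3* as stronger expressed in FL1 in diestrus. In this balanced design, the estimate of the difference between estrus and diestrus taken over both lines does not depend on the line differences. This stage difference was therefore tested, though with the same libraries and the same spread within groups.

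RNA came from whole ovaries of the Dummerstorf high-fertility line FL1 and of its control line ctrl, both without a transgene. The lines go back to the same outbred population. FL1 was selected over many generations for litter size and litter weight, whereas ctrl was bred without selection. All animals were females labelled as 77 days old, and each was staged as estrus (after ovulation) or diestrus (with active corpora lutea) by vaginal smear. This gave 4 groups of 5 libraries with 1 animal per library, ctrl estrus, FL1 estrus, ctrl diestrus and FL1 diestrus. Since each line is 1 population, an effect of selection and a chance divergence between the lines cannot be told apart.

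Kruppel-like factors are zinc finger proteins that bind GC-rich and CACCC sites in promoters and enhancers, the same kind of site that Sp factors bind. KLF2 and KLF4 are known for keeping endothelial cells quiescent and are induced by flow through the MEKK3-ERK5-MEF2 pathway. KLF3 recruits the CtBP corepressor, KLF9 and KLF13 recruit the Sin3A corepressor, and *Klf9* and *Klf15* are targets of the glucocorticoid receptor. In the ovary, blood vessels, corpora lutea and follicles are rebuilt in each cycle, and several family members are known to respond to hormones there.

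The promoters of *Klf2* and *Klf3*, for which the family was chosen, and of *Klf4*, the nearest relative of *Klf2*, are shown with the sites they hold. Each is 300 bases from RefSeq (GRCm38.p6, 250 bases before and 50 from the start site on), read 5′ to 3′ on the strand of the gene. Capitals mark the GC box GGGCGG, the CACCC box and the MEF2 consensus on either strand.
*Klf2*, chr8:72318812-72319111, plus strand: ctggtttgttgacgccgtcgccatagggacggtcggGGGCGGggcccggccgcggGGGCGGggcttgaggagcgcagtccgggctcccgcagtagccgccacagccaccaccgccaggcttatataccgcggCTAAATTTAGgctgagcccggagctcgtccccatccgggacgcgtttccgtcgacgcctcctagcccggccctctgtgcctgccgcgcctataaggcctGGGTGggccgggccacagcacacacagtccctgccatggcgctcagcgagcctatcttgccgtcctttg
*Klf3*, chr5:64803271-64803570, plus strand: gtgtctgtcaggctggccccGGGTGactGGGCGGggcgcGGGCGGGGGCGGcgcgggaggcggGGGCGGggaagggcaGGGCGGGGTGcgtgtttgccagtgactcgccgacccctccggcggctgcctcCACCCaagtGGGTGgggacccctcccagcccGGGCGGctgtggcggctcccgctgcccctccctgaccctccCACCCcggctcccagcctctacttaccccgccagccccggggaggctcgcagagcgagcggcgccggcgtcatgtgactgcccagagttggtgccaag
*Klf4*, chr4:55532426-55532725, minus strand: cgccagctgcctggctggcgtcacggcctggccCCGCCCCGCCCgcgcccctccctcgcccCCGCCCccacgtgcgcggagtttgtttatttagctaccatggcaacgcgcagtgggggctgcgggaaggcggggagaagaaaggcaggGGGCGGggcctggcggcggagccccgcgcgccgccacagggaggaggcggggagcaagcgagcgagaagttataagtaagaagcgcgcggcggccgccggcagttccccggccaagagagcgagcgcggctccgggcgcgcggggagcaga
The *Klf3* window held 6 GC boxes and 5 CACCC boxes, the *Klf4* window 4 GC boxes and no CACCC box, and the *Klf2* window 2 GC boxes and 1 CACCC box. The *Klf2* window was the only one of the 8 member windows at hand with the MEF2 consensus, at positions -118 to -109 from the start site, and 3.19% of all 32851 promoter windows held it. *Klf5* and *Klf10* had no window in the table and were not searched.

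A 4th promoter is shown because it stood apart in another motif. Capitals here mark the E-box CACGTG, the site of clock and MYC-type factors.
*Klf15*, chr6:90462326-90462625, plus strand: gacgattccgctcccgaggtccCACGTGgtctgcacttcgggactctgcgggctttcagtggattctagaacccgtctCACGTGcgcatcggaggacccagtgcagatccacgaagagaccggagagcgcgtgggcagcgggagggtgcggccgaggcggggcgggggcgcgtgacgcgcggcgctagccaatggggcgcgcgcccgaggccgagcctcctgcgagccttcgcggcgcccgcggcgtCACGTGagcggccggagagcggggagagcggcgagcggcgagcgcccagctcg
The *Klf15* window held 3 E-boxes, *Klf4* and *Klf6* had 1 each, and the other 5 windows had none. An E-box was present in 7.15% of all windows and 2 or more in 0.594%.

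Across the 8 members, a GC box was present in 7 windows and a CACCC box in 6, against 35.7% and 57.5% of all windows. The window of *Klf9* was the one without a GC box. The median GC content of all windows was 52.7%, and the member windows ranged from 58.3% in *Klf7* to 76.7% in *Klf3*. The CCAAT box CCAAT was found in *Klf6*, *Klf9*, *Klf13* and *Klf15* (37.4% of all windows), the cyclic AMP response element core TGACGT in *Klf9* and *Klf13* (7.51%), and the AP-1 site TGACTCA in none of the 8 (5.20%). The motifs were searched on both strands. Neighbouring matches shared 1 or more bases in the *Klf3*, *Klf4*, *Klf9* and *Klf13* windows. These are matches of letters and not measured binding.

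**Figure D1:**
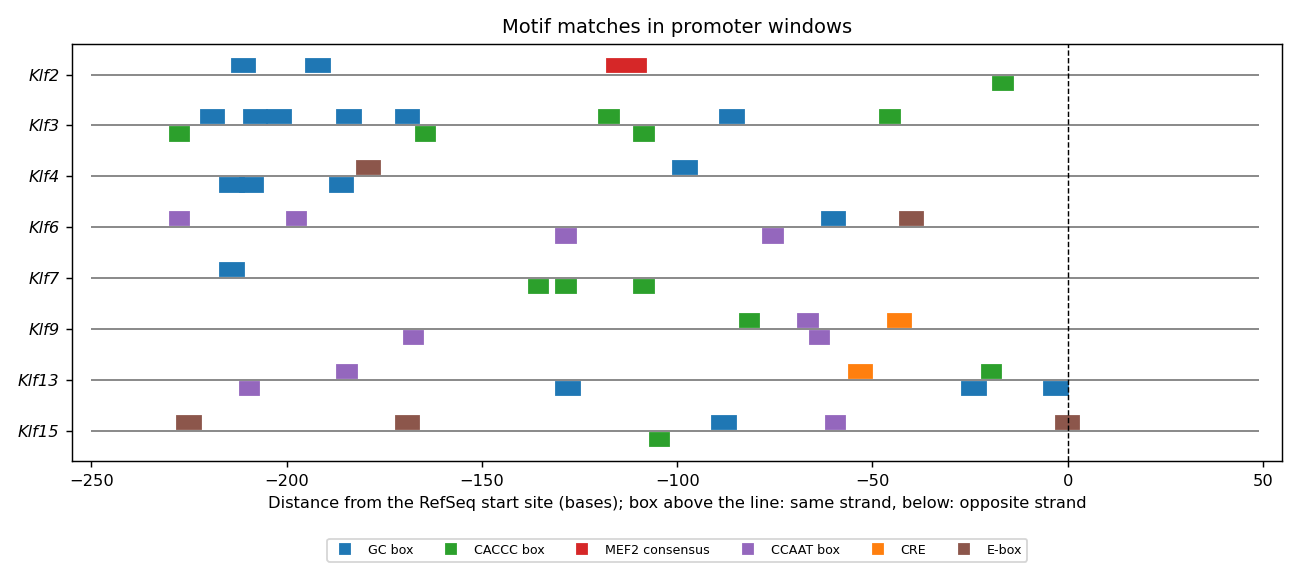
Motif matches in the 300-base promoter windows of 8 members, one row per gene. The x axis is the distance from the start site in bases, and each mark is a match on either strand. The *Klf3* row carries 6 GC boxes and 5 CACCC boxes, and the *Klf15* row 3 E-boxes.

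The libraries held 5991223 to 10352718 counts (median 6957533). Levels are given as CPM, the counts of a gene scaled to the TMM-adjusted size of its library, and since reads come from the 3′ end of transcripts, 1 count stands for 1 3′ end read whatever the length of the gene. The label of the tissue matched its markers. The 6 luteal markers summed to 14965 to 48422 CPM, whereas the 4 oviduct markers did not exceed 19.5 CPM and the 4 fat markers did not exceed 44.6 CPM in any library. In whole ovaries, fewer cells of a type and less RNA per cell cannot be told apart, and this holds for all results below.

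*Klf9* was the strongest expressed member, with a mean of 250.4 CPM over the 20 libraries. It was followed by *Klf13* at 147 CPM, *Klf3* at 117 CPM, *Klf6* at 99.8 CPM, *Klf7* at 68.4 CPM and *Klf2* at 66.5 CPM. *Klf10* reached 33.8 CPM, *Klf5* 13.4 CPM, *Klf15* 10.8 CPM and *Klf4* 6.96 CPM. *Klf9* stood above *Klf13* in all 20 libraries, and *Klf2* above *Klf10* in 20 of 20. *Klf7* and *Klf2* were not separated, with *Klf7* higher in 11 of 20, nor were *Klf5* and *Klf15*, with *Klf5* higher in 13 of 20. The other neighbours in this order kept it in 16 to 19 of 20 libraries. Of the 7 family members outside the list, *Klf16* had 18.1 CPM, *Klf11* 10.5 CPM, *Klf12* 9.91 CPM, *Klf17* 7.90 CPM, *Klf8* 6.11 CPM and *Klf1* 1.99 CPM, and *Klf14* had 2 counts in 1 library. The related *Sp1* was at 177 CPM and *Sp3* at 56.7 CPM.

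**Figure D2:**
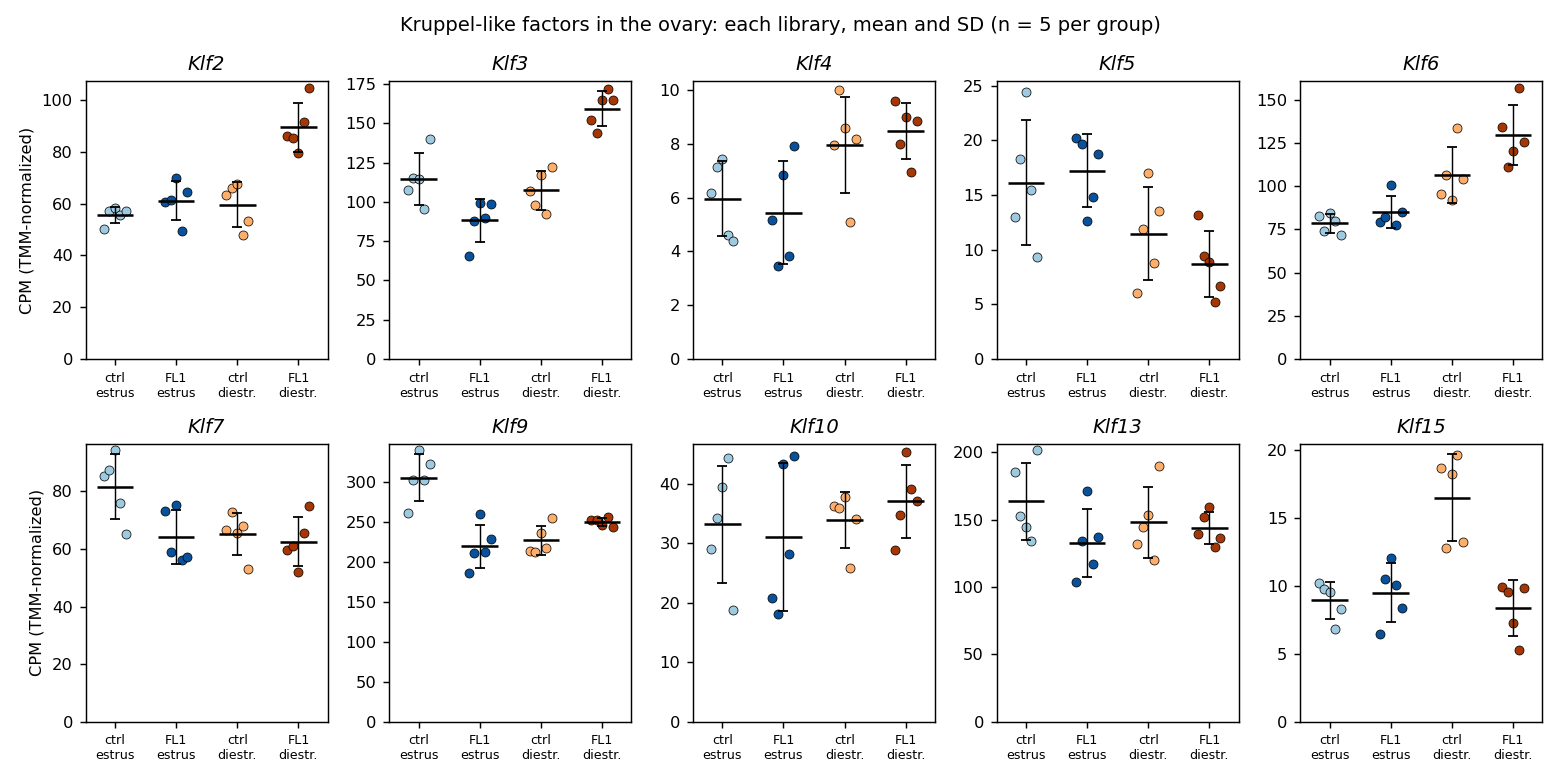
CPM of each of the 10 members in the 20 libraries, 1 panel per gene. Points are single libraries, and the bars give the mean and SD of the 5 libraries of a group. *Klf2* and *Klf3* stand highest in FL1 diestrus, *Klf9* in ctrl estrus and *Klf15* in ctrl diestrus.

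*Klf2*, the flow-induced endothelial factor (GRCm38 chr8:72319033-72321656, plus strand), had its highest values in FL1 diestrus. In replicate order, the 5 ctrl estrus libraries had 50.2, 57.1, 58.2, 55.5 and 57.3 CPM, and the FL1 estrus libraries had 60.8, 61.5, 69.9, 49.3 and 64.3 CPM. The ctrl diestrus libraries had 63.4, 66.1, 67.4, 47.8 and 53.5 CPM, and the FL1 diestrus libraries had 86.2, 85.3, 79.5, 91.5 and 104 CPM. All 5 FL1 diestrus libraries lay above all 15 others, which overlapped among themselves. The group means were 55.6 ± 3.18, 61.2 ± 7.56, 59.6 ± 8.58 and 89.4 ± 9.44 CPM (SD, n = 5 each). FL1 against ctrl, *Klf2* had a log2FC of 0.58 (SE 0.11) in diestrus and of 0.14 (SE 0.11) in estrus. The study's qPCR of *Klf2* in diestrus, with more animals per group than were sequenced, gave a slightly negative value for FL1 against ctrl, not marked as significant.

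*Klf4* (chr4:55527143-55532466, minus strand) shares the flow-induced route with *Klf2* but was the least abundant member. The groups ranged over 4.40 to 7.45 CPM in ctrl estrus, 3.46 to 7.93 CPM in FL1 estrus, 5.11 to 10.0 CPM in ctrl diestrus and 6.95 to 9.61 CPM in FL1 diestrus. The lines overlapped in both stages, with a log2FC of 0.085 (SE 0.21) in diestrus and -0.12 (SE 0.28) in estrus. These values rest on 23 to 84 counts per library.

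*Klf3*, the CtBP-dependent repressor (chr5:64803388-64832901, plus strand), differed between the lines with opposite sign in the stages. The ctrl estrus libraries had 108, 115, 114, 95.7 and 140.2 CPM and the FL1 estrus libraries 65.8, 87.9, 99.2, 89.8 and 98.8 CPM. In diestrus, ctrl had 107, 98.2, 117, 92.5 and 122 CPM and FL1 had 152, 144, 165, 172 and 165 CPM. FL1 was thus above every ctrl library in diestrus, while in estrus 3 of 5 FL1 libraries were below every ctrl library. The group means were 115 ± 16.3 CPM in ctrl estrus, 88.3 ± 13.6 CPM in FL1 estrus, 107 ± 12.5 CPM in ctrl diestrus and 159 ± 11.3 CPM in FL1 diestrus (SD, n = 5 each). The log2FC of FL1 against ctrl was 0.57 (SE 0.093) in diestrus and -0.38 (SE 0.13) in estrus, and the estrus difference minus the diestrus difference was -0.94 (SE 0.16). Within lines, *Klf3* differed between estrus and diestrus by -0.85 (SE 0.10) in FL1 and by 0.089 (SE 0.12) in ctrl. *Klf3* overlaps 1 other annotated gene on each strand, *Gm20033* and *C230096K16Rik*, with 39 and 227 counts over all 20 libraries, against 447 or more *Klf3* counts in each single library.

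*Klf9*, a Sin3A-binding repressor induced by glucocorticoid and thyroid hormone (chr19:23141226-23168134, plus strand), was the only member whose lines did not overlap in estrus. The ctrl estrus libraries had 261.3, 301.9, 340.1, 301.9 and 322.0 CPM and the FL1 estrus libraries 186.0, 210.5, 259.3, 212.0 and 228.4 CPM. The diestrus libraries had 213.0, 212.7, 236.4, 217.1 and 254.9 CPM in ctrl and 252.2, 251.9, 245.6, 256.3 and 243.7 CPM in FL1. Each ctrl estrus library was above each FL1 estrus library. In diestrus the groups overlapped, and FL1 stayed within a narrow range. The log2FC of FL1 against ctrl was -0.48 (SE 0.11) in estrus and 0.14 (SE 0.076) in diestrus. In ctrl, estrus was above diestrus by 0.43 (SE 0.10) on the log2 scale without overlap, whereas in FL1 the value was -0.19 (SE 0.084). The spread within groups was smallest for *Klf9* in FL1 diestrus, with a coefficient of variation of 2.07%.

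*Klf15*, a glucocorticoid-induced regulator of amino acid and glucose use (chr6:90462576-90475238, plus strand), stood out in ctrl diestrus. The libraries had 10.2, 9.79, 9.54, 6.79 and 8.28 CPM in ctrl estrus and 6.48, 10.5, 12.1, 10.1 and 8.36 CPM in FL1 estrus. In diestrus they had 18.6, 12.8, 18.2, 19.6 and 13.2 CPM in ctrl and 9.90, 9.57, 7.26, 5.25 and 9.85 CPM in FL1. All 5 ctrl diestrus libraries were above all 15 others. The log2FC of FL1 against ctrl was -0.98 (SE 0.21) in diestrus and 0.093 (SE 0.21) in estrus. The diestrus value was the largest line difference among the 10 members in either stage. The counts behind these values were 37 to 197 per library.

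Besides *Klf4*, the remaining 5 members differed less between the lines. *Klf13*, a Sin3A-binding relative of *Klf9* (chr7:63886351-63938915, minus strand), ranged over 134 to 202 CPM in ctrl estrus, 104 to 171 CPM in FL1 estrus, 120.1 to 189.6 CPM in ctrl diestrus and 130.1 to 159 CPM in FL1 diestrus. *Klf7*, known from neurons and fat cells (chr1:64029447-64122282, minus strand), was at 81.6 ± 11.3 CPM in ctrl estrus and 64.1 ± 9.29 CPM in FL1 estrus (log2FC -0.35, SE 0.13), and its groups overlapped. *Klf6*, an injury-induced activator (chr13:5861482-5870394, plus strand), had a log2FC of 0.28 (SE 0.12) in diestrus and 0.11 (SE 0.10) in estrus. *Klf5*, a proliferation factor of epithelia (chr14:99298691-99315036, plus strand), had a log2FC of -0.39 (SE 0.29) in diestrus and 0.088 (SE 0.23) in estrus. *Klf10*, an early gene of TGF-β signalling, (chr15:38291463-38300706, minus strand) had the largest coefficient of variation of all members and groups, 40.0% in FL1 estrus, where it ranged over 18.2 to 44.7 CPM.

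By the criterion used for all genes (edgeR adjusted p of at most 0.05), *Klf9* alone was past the threshold in estrus, where 2.33% of 13374 genes were. In diestrus *Klf2*, *Klf3* and *Klf15* were past it, with 4.11% of 13259 genes. For the line-by-stage interaction it was *Klf3* alone, with 0.0565% of 14154 genes. The same members, *Klf9* in estrus and *Klf2*, *Klf3* and *Klf15* in diestrus, were those whose groups did not overlap, which held for 4.88% of genes in estrus and 5.45% in diestrus. Because these contrasts led to the choice of the family, nothing is read from these counts. As a description only, the sign of the line difference was opposite in the stages in 6 of the 10 members. It was more positive in diestrus in 8 of 10, *Klf5* and *Klf15* being the exceptions. The shares over all genes were not determined, so these counts are not read as a trait of the family. Of the 6, *Klf4*, *Klf5*, *Klf10* and *Klf15* had estrus values near 0 whose sign turned in at least 1 fit without 1 library, with ranges of -0.30 to 0.0038, -0.046 to 0.29, -0.27 to 0.040 and -0.0099 to 0.20.

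**Figure D3:**
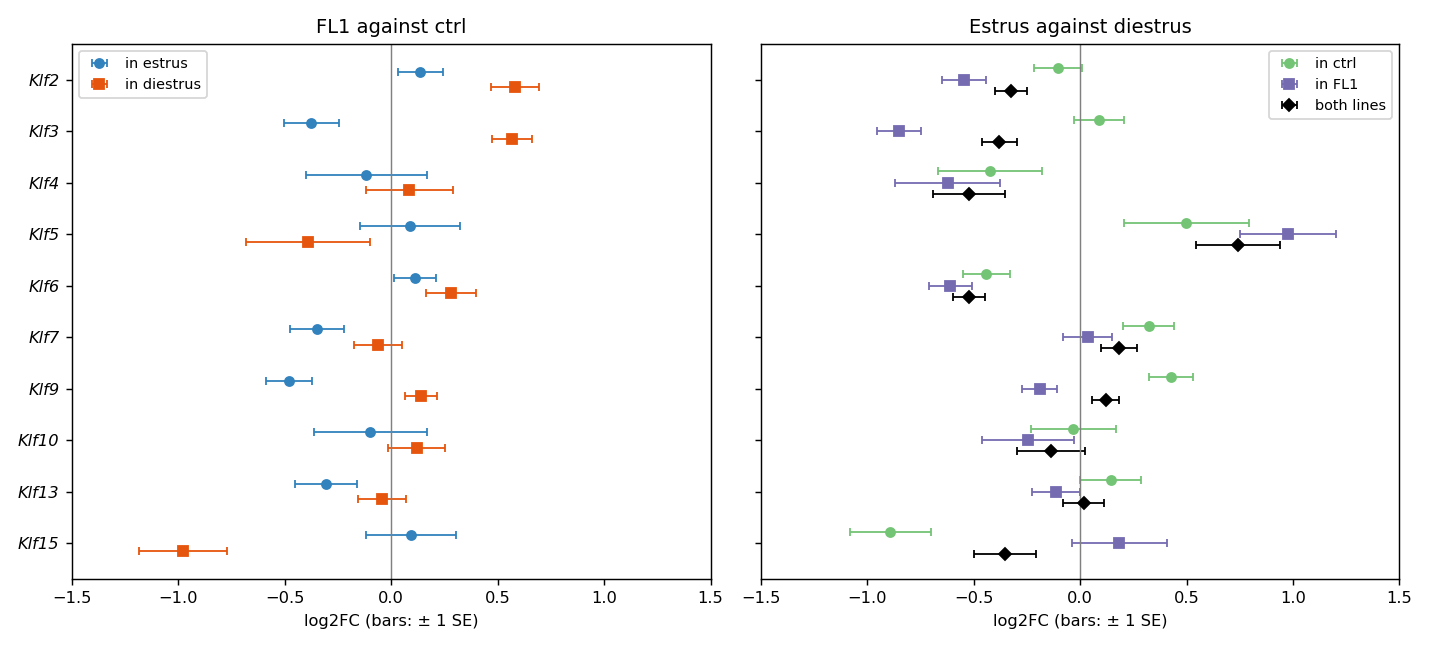
log2FC of the 10 members with SE as bars, for FL1 against ctrl in each stage and for estrus against diestrus in each line and over both. Positive values are stronger expression in FL1, or in estrus. *Klf3* lies at -0.38 in estrus and 0.57 in diestrus for the line difference.

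Stage, estrus against diestrus over both lines with 10 libraries each, was the comparison in which the members could be tested. Of the 10, *Klf6*, *Klf3*, *Klf2* and *Klf4* were weaker expressed in estrus and *Klf5* was stronger expressed. In the same test 15.9% of 14154 genes passed, 7.62% with weaker and 8.25% with stronger expression in estrus. The median log2FC of the 10 members was -0.23, beside 0.000 for all genes.

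*Klf6* passed with the smallest p among the members. It had 82.9, 74.1, 84.6, 79.6 and 71.5 CPM in ctrl estrus and 79.4, 81.9, 101, 77.4 and 85.1 CPM in FL1 estrus. The diestrus values were 95.4, 107, 92.0, 134 and 104 CPM in ctrl and 134, 111, 120.2, 157 and 126 CPM in FL1. With the exception of FL1 estrus replicate 3, all estrus libraries were below all diestrus libraries (log2FC -0.52, SE 0.077, edgeR adjusted p = 5.12e-05). The difference was present in ctrl (-0.44, SE 0.11) and in FL1 (-0.61, SE 0.10).

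*Klf3* (log2FC -0.38, SE 0.081, edgeR adjusted p = 0.0021) and *Klf2* (log2FC -0.32, SE 0.076, edgeR adjusted p = 0.00469) were also weaker expressed in estrus over both lines. For both genes the value in FL1 was the larger, -0.85 (SE 0.10) for *Klf3* and -0.55 (SE 0.10) for *Klf2*, beside 0.089 (SE 0.12) and -0.10 (SE 0.11) in ctrl, where the stages overlapped. The average over lines is therefore not a description of ctrl for *Klf3* and *Klf2*.

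*Klf5* was stronger expressed in estrus (log2FC 0.74, SE 0.20, edgeR adjusted p = 0.0111). It had 13.0, 18.2, 24.4, 15.5 and 9.34 CPM in ctrl estrus and 20.2, 19.7, 12.6, 14.8 and 18.8 CPM in FL1 estrus. The diestrus libraries had 6.05, 11.9, 17, 8.73 and 13.6 CPM in ctrl and 13.2, 9.44, 8.83, 5.25 and 6.68 CPM in FL1. The stages overlapped in both lines, and the values per line were 0.50 (SE 0.29) in ctrl and 0.98 (SE 0.23) in FL1.

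*Klf4* was weaker expressed in estrus (log2FC -0.52, SE 0.17, edgeR adjusted p = 0.0386), with a mean of 5.70 ± 1.60 CPM in estrus and 8.22 ± 1.4 CPM in diestrus (SD, n = 10 each). This call was lost in 12 of 20 fits that left out 1 library, with edgeR adjusted p up to 0.0750. These libraries were ctrl estrus replicates 1, 4 and 5, FL1 estrus replicates 1, 2 and 4, ctrl diestrus replicates 2, 3 and 5, and FL1 diestrus replicates 1, 3 and 5. The adjusted p was 0.0824 when all genes with at least 1 count were kept.

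For the other 5 members no difference between the stages passed the test. The log2FC was -0.35 (SE 0.15) for *Klf15* (95% confidence interval -0.65 to -0.050), 0.18 (SE 0.085) for *Klf7* (0.0045 to 0.36) and 0.12 (SE 0.064) for *Klf9* (-0.012 to 0.25). It was -0.14 (SE 0.16) for *Klf10* (-0.47 to 0.20) and 0.016 (SE 0.097) for *Klf13* (-0.18 to 0.22). The edgeR adjusted p ranged from 0.110 for *Klf15* to 0.941 for *Klf13*. *Klf15* passed at 0.0485 without FL1 diestrus replicate 4. The lines had unlike values in *Klf9* and *Klf15*. In ctrl, *Klf9* was at 0.43 (SE 0.10) and *Klf15* at -0.89 (SE 0.19), and in FL1 they were at -0.19 (SE 0.084) and 0.18 (SE 0.22). By the same criterion as above, *Klf9* and *Klf15* were past the threshold in ctrl (2.85% of genes) and *Klf2*, *Klf3*, *Klf5* and *Klf6* in FL1 (15.9% of genes), as a description.

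Genes around the family were taken from short lists of known partners and targets. None of the 6 other Kruppel-like factors tested and none of the 4 or 5 *Sp* genes tested passed edgeR's test in either line comparison or between the stages, and none passed with DESeq2. At an unadjusted p under 0.05 there were 3 in FL1 against ctrl in estrus, 0 in diestrus and 1 between the stages (*Klf1*, log2FC -1.05, SE 0.45). In estrus these were *Klf8* (log2FC 0.79, SE 0.31, edgeR adjusted p = 0.216), *Klf12* (-0.51, SE 0.20, 0.228) and *Sp5* (1.21, SE 0.51, 0.258). Of 10 cofactors and regulators of KLF protein, 1 passed in FL1 against ctrl in diestrus. This was *Fbxw7*, the substrate receptor of a ubiquitin ligase that marks KLF2 and KLF5 for degradation. It was at 69.8 ± 6.64 CPM in FL1 and 111 ± 18 CPM in ctrl (SD, n = 5 each), without overlap (log2FC -0.67, SE 0.11, edgeR adjusted p = 0.00425). *Fbxw7* was also weaker expressed in estrus over both lines (log2FC -0.53, SE 0.084, edgeR adjusted p = 0.000114), as was the acetyltransferase gene *Kat2b* (-0.27, SE 0.080, 0.0220). For *Fbxw7* the log2FC between stages was -0.77 in ctrl (edgeR adjusted p = 0.00739). In FL1 alone *Fbxw7* had an unadjusted p under 0.05 but passed with neither edgeR nor DESeq2. The corepressor genes *Ctbp1*, *Ctbp2* and *Sin3a* did not pass in any of these comparisons.

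In the MEKK3-ERK5-MEF2 and CCM pathway, upstream of *Klf2* and *Klf4*, none of 10 genes passed edgeR's or DESeq2's test in FL1 against ctrl in either stage, and 0 in estrus and 3 in diestrus (*Mapk7*, *Pdcd10* and *Heg1*) had an unadjusted p under 0.05. Between stages 3 of 10 passed, in different directions. *Heg1*, the transmembrane partner of the CCM proteins, was stronger expressed in estrus, at 247 ± 46.6 against 152 ± 26.8 CPM (SD, n = 10 each), without overlap of the stages (log2FC 0.70, SE 0.097, edgeR adjusted p = 2.28e-05). *Mef2c* was weaker expressed (-0.35, SE 0.084, 0.00580) and *Mef2d* stronger (0.20, SE 0.066, 0.0417, lost in 13 of 20 fits without 1 library, up to 0.0922). Of 8 endothelial genes known to respond to KLF2, none passed in the line comparisons with edgeR or DESeq2, and 0 in estrus and 2 in diestrus (*Nos3* and *Vcam1*) had an unadjusted p under 0.05. In estrus against diestrus *Vcam1* (log2FC -0.61, SE 0.16, edgeR adjusted p = 0.00905) and *Nos3* (-0.40, SE 0.13, 0.0374) were weaker expressed, and none of the 8 had a positive log2FC. The call of *Nos3* was lost in 13 of 20 fits without 1 library (edgeR adjusted p up to 0.0681). KLF2 is known to raise *Nos3* and to lower the induction of *Vcam1*.

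Glucocorticoid-induced genes, the companions of *Klf9* and *Klf15*, were weaker expressed in estrus in 3 of 6 cases. *Tsc22d3* had 49.3 ± 7.48 CPM in estrus and 74.4 ± 6.47 CPM in diestrus (SD, n = 10 each), without overlap (log2FC -0.60, SE 0.075, edgeR adjusted p = 6.01e-06). *Fkbp5*, the FK506-binding co-chaperone of steroid receptors (-0.43, SE 0.077, 0.000411), and the kinase gene *Sgk1* (-0.63, SE 0.17, 0.0152) followed. In FL1 against ctrl, *Fkbp5* was stronger expressed in diestrus, at 740 ± 61.3 against 542 ± 83.9 CPM (log2FC 0.45, SE 0.11, edgeR adjusted p = 0.0309). It was the only 1 of the 6 with an unadjusted p under 0.05. Of the 6, 3 had a positive log2FC (median -0.083), and 4.11% of all genes passed in this comparison. The list as a whole was thus not raised. *Klf15* had a log2FC of -0.98 (SE 0.21) in the same libraries. Of 4 metabolic genes known to respond to KLF15, *Gpt*, an alanine aminotransferase, was stronger expressed in FL1 diestrus (5.50 ± 0.502 against 2.22 ± 0.876 CPM, log2FC 1.31, SE 0.30, edgeR adjusted p = 0.0241). The call of *Fkbp5* between lines was lost in 7 of 10 fits without 1 library (ctrl diestrus replicates 1, 2 and 5, FL1 diestrus replicates 1, 2, 3 and 5, adjusted p up to 0.0877). *Slc2a4*, the insulin-regulated glucose transporter of the same list, was stronger expressed in estrus than in diestrus (log2FC 1.17, SE 0.36, edgeR adjusted p = 0.0273), lost in 5 of 20 fits, without replicate 5 of ctrl or FL1 estrus, ctrl diestrus replicate 2 or FL1 diestrus replicates 4 or 5 (up to 0.0595). The *Gpt* call was lost without ctrl diestrus replicate 2 or FL1 diestrus replicates 3, 4 or 5 (up to 0.0591).

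Of 6 early TGF-β response genes, listed for *Klf10*, *Skil* (log2FC -0.84, SE 0.12, edgeR adjusted p = 2.26e-05) and *Smad7* (-0.51, SE 0.14, 0.0146) were weaker expressed in estrus, while *Klf10* had a log2FC of -0.14 (SE 0.16). Of 12 immediate early genes, *Fos* (-0.95, SE 0.27, 0.0176), *Egr1* (-0.55, SE 0.16, 0.0240) and *Dusp1* (-0.88, SE 0.21, 0.00570) were weaker expressed in estrus. The call of *Egr1* was lost without ctrl diestrus replicate 1 or FL1 diestrus replicate 4 (up to 0.0546), and none of the 12 had a positive log2FC. None of the 12 passed in FL1 against ctrl in diestrus (3 at an unadjusted p under 0.05, 0 with DESeq2), nor did any of the 11 tested in estrus (2 at an unadjusted p under 0.05, 1 with DESeq2, *Atf3*). Of 4 steroid receptor genes, *Esr2* was weaker expressed in estrus than in diestrus (-0.41, SE 0.11, 0.0154). *Esr1* was weaker expressed in FL1 than in ctrl in estrus (-0.74, SE 0.16, 0.0263), a call lost in 6 of 10 fits without 1 library, ctrl replicates 1, 3 and 4 and FL1 replicates 2, 4 and 5 (up to 0.0767). All these p-values are edgeR adjusted p over all genes tested.

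**Figure D4:**
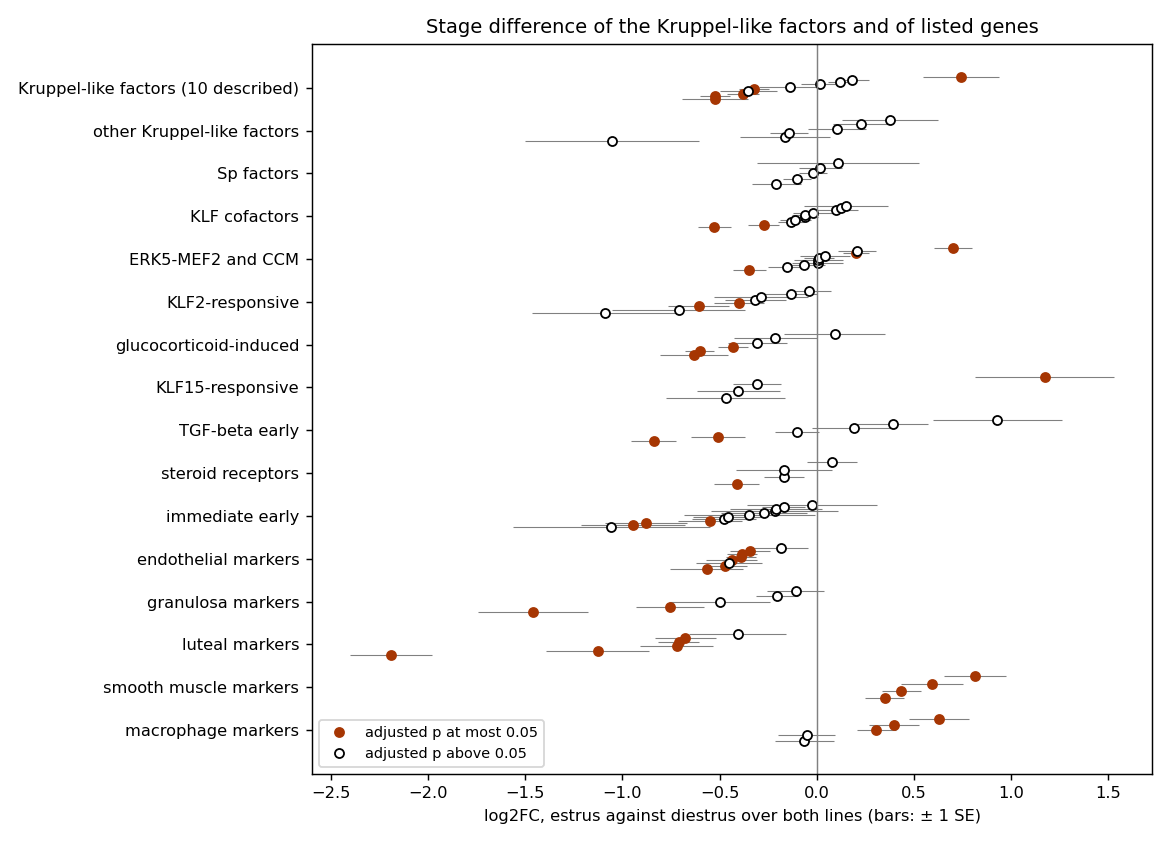
log2FC of estrus against diestrus over both lines for the genes of each list, with filled points for genes past the edgeR threshold and bars of 1 SE. Among the filled points 4 members lie below 0 and *Klf5* above it. All 12 immediate early genes and all 8 endothelial markers lie below 0.

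Markers of cell types moved with the stages as well. Over both lines, of 8 endothelial markers 6 were weaker expressed in estrus, among them *Cdh5* (log2FC -0.38, SE 0.075, edgeR adjusted p = 0.000977) and *Kdr* (-0.47, SE 0.11, 0.00567), and of 6 luteal markers 5 were, among them *Lhcgr* (-2.19). The endothelial values are also given by line. In FL1 6 of 8 passed with edgeR (median log2FC -0.70), where 15.9% of all genes did. In ctrl 0 of 8 passed with edgeR or DESeq2, 0 had an unadjusted p under 0.05, and the median was -0.15. In ctrl only 2.85% of all genes passed with edgeR, so the unlike numbers of calls are not read as a line difference. The endothelial calls of *Pecam1*, *Cldn5* and *Erg* were lost in 3, 2 and 13 of 20 fits without 1 library. The summed endothelial level ranged over 326 to 517 CPM in ctrl estrus, 269 to 338 CPM in FL1 estrus, 347 to 512 CPM in ctrl diestrus and 426 to 542 CPM in FL1 diestrus. The summed immediate early level ranged over 462 to 702, 441 to 849, 592 to 925 and 626 to 1171 CPM in the same order. No endothelial, luteal or immediate early gene of these lists was at 0 in a group. In FL1 against ctrl in diestrus, 1 of 8 endothelial markers passed, *Egfl7* (0.65, SE 0.11, edgeR adjusted p = 0.00528), and 6 of 8 had a positive log2FC (median 0.10, beside -0.0093 for all genes). In estrus 1 of 8 was positive (median -0.36, beside -0.0052), and none passed with edgeR (3 at an unadjusted p under 0.05, 1 with DESeq2, *Cdh5*). For the line-by-stage interaction all 8 were negative (median -0.46, beside 0.0085), the sign of every member but *Klf5* and *Klf15*, and none passed with edgeR (4 at an unadjusted p under 0.05, 1 with DESeq2, *Egfl7*). This sign was not particular to endothelial markers. None of 5 macrophage (median -0.38), none of 4 smooth muscle (-0.22) and 1 of 6 luteal markers (-0.25) had a positive value. All 6 oocyte (0.48) and all 4 surface epithelium markers (0.74) were positive. The interaction was also among the contrasts behind the choice of the family. In diestrus, single markers of other cell types were also stronger expressed in FL1, *Lhcgr* of 6 luteal (1.43, SE 0.32, edgeR adjusted p = 0.0209), *Foxl2* of 5 granulosa (0.53, SE 0.11, 0.0132), *Cd68* of 5 macrophage (0.79, SE 0.21, 0.0467) and *Hba-a2* of 5 red blood cell markers (4.77, SE 0.66, 0.00101). Of these lists, 4 of 6 luteal (median 0.021), 4 of 5 granulosa (0.46), 2 of 5 macrophage (-0.020) and 5 of 5 red blood cell markers (0.42) had a positive log2FC. None of 6 oocyte markers did (median -0.28), and the theca marker *Cyp17a1* was at -1.06. Neither oocyte nor theca markers passed. With DESeq2, *Hba-a2* also passed in estrus. The calls of *Lhcgr* and *Cd68* were lost in 3 (without FL1 diestrus replicate 3, 4 or 5) and 9 of 10 fits without 1 library. For *Foxl2* the study's qPCR in diestrus, with more animals per group than were sequenced, gave a slightly negative value, not marked as significant. In estrus *Upk3b*, of the ovarian surface epithelium, was stronger expressed in FL1 (0.69, SE 0.17, edgeR adjusted p = 0.0468), lost in 8 of 10 fits. Between the stages over both lines, smooth muscle markers were stronger expressed in estrus in 4 of 4 cases, macrophage markers in 3 of 5 and surface epithelium markers in 1 of 4. The macrophage calls of *C1qa* and *C1qb* were each lost in 14 of 20 fits without 1 library. Red blood cell markers were weaker in 4 of 5 cases and granulosa markers in 2 of 5, and the theca marker *Cyp17a1* had a log2FC of -4.42. None of 6 oocyte markers passed. In this test 15.9% of all genes passed. The part of cell composition in the stage and line differences of the members was not tested.

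Whether a member varied from animal to animal with endothelial markers, luteal markers or immediate early genes was examined within the groups. The mean of each group was first subtracted from the log2 CPM. Each of the 3 scores (endothelial, luteal, immediate early) was the mean of these centred values over its genes, not the summed CPM given above. Over 20 libraries and 10 members, 0 of 30 relations passed a permutation test with Benjamini-Hochberg adjustment. The largest was *Klf3* with the luteal score (Pearson's r = 0.53, permutation p = 0.0508, Spearman's rho = 0.52, permutation p = 0.0412, adjusted p = 0.517 and 0.633). Without the 2 libraries farthest from the median luteal score it was r = 0.49. In the 10 estrus libraries alone it was 0.77 and in the 10 diestrus libraries -0.074. *Klf10* had r = 0.46 with the immediate early score (permutation p = 0.0340, rho = 0.38, permutation p = 0.106, adjusted p = 0.517 and 0.633), and 0.43 without the 2 farthest libraries. *Klf5* had r = -0.48 with the immediate early score (permutation p = 0.0558, rho = -0.47, permutation p = 0.0574, adjusted p = 0.517 and 0.633), and -0.50 without the 2 farthest libraries. *Klf2* had r = 0.21 with the endothelial score (permutation p = 0.373, rho = 0.40, permutation p = 0.0984), and 0.14 without the 2 farthest libraries.

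Among the members themselves, none of 45 pairs passed the same test, which was added after the data were seen. The highest were *Klf3* with *Klf13* (r = 0.70, permutation p = 0.00389, rho = 0.63, permutation p = 0.0102, adjusted p = 0.175 and 0.230) and *Klf3* with *Klf9* (r = 0.68, permutation p = 0.0111, rho = 0.69, permutation p = 0.00413, adjusted p = 0.250 and 0.186). Without the 2 farthest libraries both were at r = 0.58. The median of the 45 values of r was 0.15, and 33 were positive. All libraries share their scaling and depth, so the values are not independent of each other.

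**Figure D5:**
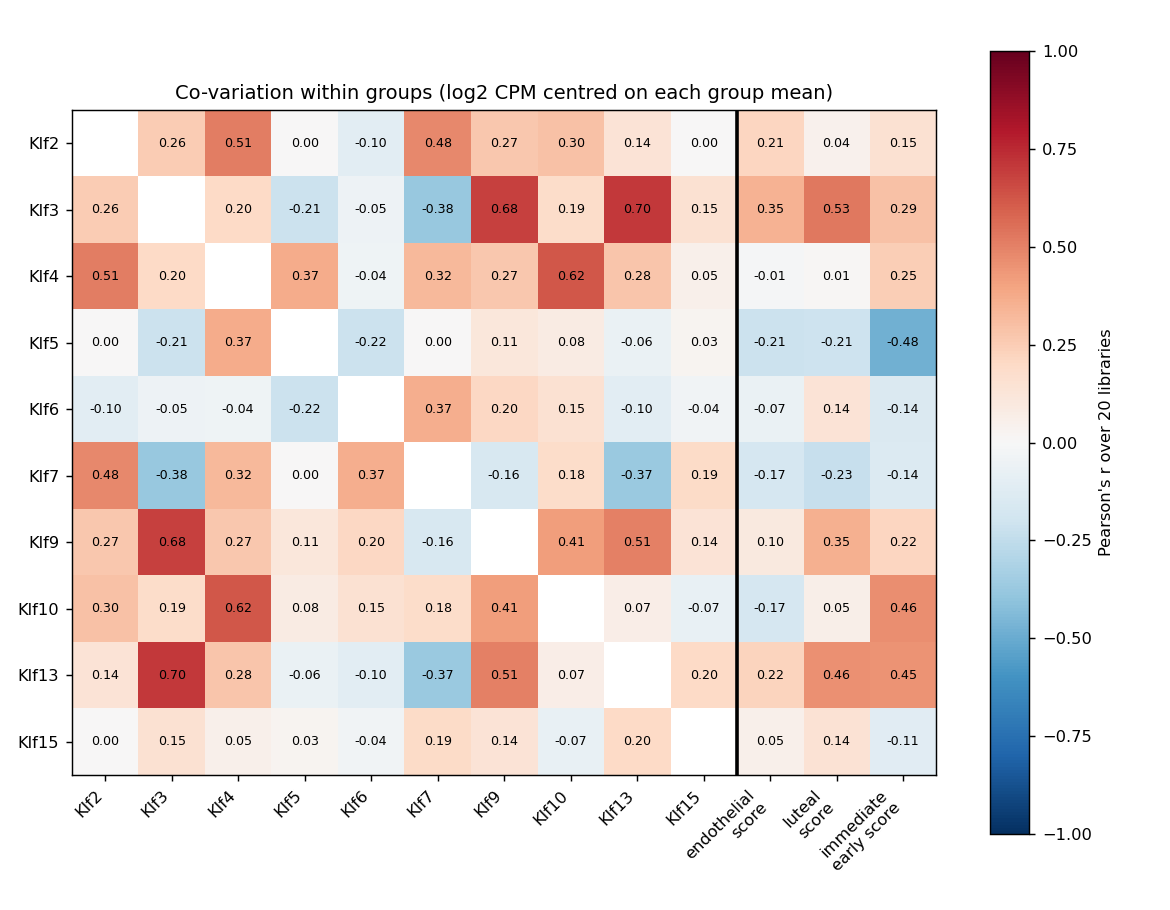
Pearson's r of log2 CPM after subtraction of the group means, over 20 libraries, for the members with 3 scores and for the members with each other. None of the 30 or 45 relations passed the adjusted permutation test. The highest pair is *Klf3* with *Klf13* at 0.70.

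The genes most like *Klf2* and *Klf3* by the same measure, of 11072 genes with at least 5 CPM, are given as a description. For *Klf3* they were *Zfp672* (r = 0.88, rho = 0.78), *Timp2* (r = 0.88, rho = 0.91), *Gsk3b* (r = 0.88, rho = 0.89), *Efcab14* (r = 0.88, rho = 0.83) and *Vezf1* (r = 0.85, rho = 0.84). For *Klf2* they were *Aldh9a1* (r = 0.72, rho = 0.67), *Tbl3* (r = 0.72, rho = 0.73), *Cfap97* (r = 0.72, rho = 0.61), *Usp40* (r = 0.70, rho = 0.71) and *Oasl2* (r = 0.70, rho = 0.65). No gene stood in both lists.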

How the data were processed

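QuantSeq 3′ libraries of 20 whole ovaries were used, 5 per group of line and stage. The authors deposited raw read counts per Ensembl gene, which they made with STAR on GRCm38 (per the labels and the study's methods; the labels' processing notes also name Cuffdiff). The counting tool and its strand setting are not given in the sources used here. The source label of every library reads FL1, ctrl included, so lines were taken from the other labels, and each library is 1 animal. Totals were 5991223 to 10352718 counts, and *Klf4*, *Klf5* and *Klf15* rest on the fewest counts, 23 to 197 per library.

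Gene names and positions came from GENCODE M21 for 54809 of 54838 genes, and promoter windows from RefSeq. Counts were tested with edgeR 4.0.16 (quasi-likelihood test, TMM, filterByExpr with a minimum count of 10) on all genes, with Benjamini-Hochberg adjustment and a threshold of 0.05. On simulated counts with changes of 1.5 on the log2 scale, larger than those of the members, 200 of 200 changed genes were recovered for the stages over both lines (13944 genes, 6 other calls) and 181 of 200 for the interaction (13958 genes, 12 other calls). Alternatives were DESeq2 1.42.0, its size factors within edgeR, all genes with at least 1 count, the replicate number as a block, and leaving out each library. Correlations used log2 CPM with a prior count of 2 and 100000 two-sided permutations within groups. Named genes were the 10 members, genes of the lists, and the 5 genes most like *Klf2* or *Klf3*. The members and lists were chosen with earlier results of these data known.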

Additional observations from a re-analysis of the deposited data

Results flagged for a closer look

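*Klf3* was singled out because its difference between the lines was not the same in the stages. The log2FC of FL1 against ctrl was -0.38 (SE 0.13) in estrus and 0.57 (SE 0.093) in diestrus, so that the estrus value minus the diestrus value was -0.94 (SE 0.16). It was past the edgeR threshold of the interaction, as were 0.0565% of all genes. *Klf3* was among the genes for which the family was chosen, so this value is a description and not support. It stayed past the threshold in 12 of 20 fits without 1 library. By Dixon's test for groups of 5 (critical value 0.71), no library was an outlier in any of the 40 combinations of member and group. This test covered the CPM of the members only and not the other genes.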

How the results depend on the processing

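The counts of members past the threshold were the same in the line comparison in diestrus (3) under every alternative, 3 to 3 without 1 library. In estrus it was 1 under every alternative, but 0 to 1 without 1 library, *Klf9* being past it only in the fits without ctrl estrus replicate 1, ctrl estrus replicate 5 or FL1 estrus replicate 3. For the interaction, 1 member became 3 with DESeq2 (*Klf3*, *Klf9* and *Klf15*) and 0 to 2 without 1 library, *Klf3* being lost without ctrl estrus replicate 3, FL1 estrus replicates 4 or 5, ctrl diestrus replicates 2 or 4, or FL1 diestrus replicates 1, 3 or 4. For the stages in ctrl, 2 became 3 with DESeq2 (*Klf6*, *Klf9* and *Klf15*), 1 when genes with at least 1 count were kept, and 0 to 2 without 1 library, with none left without ctrl estrus replicate 4, ctrl diestrus replicate 3 or ctrl diestrus replicate 4. For the stages over both lines it was 4 to 6, and in FL1 4 to 5. The log2FC of *Klf13* between stages, 0.016, was -0.038 to 0.063 without 1 library, with a negative sign in 6 of 20 fits. Over all genes, DESeq2 gave 671 in place of 311 in estrus, 894 in place of 545 in diestrus, 152 in place of 8 for the interaction and 768 in place of 380 for the stages in ctrl. Keeping genes with at least 1 count gave 477, 846 and 17 for the estrus, diestrus and interaction comparisons. Without 1 library the counts of genes were 175 to 418 in estrus, 349 to 594 in diestrus, 0 to 15 for the interaction, 176 to 516 for the stages in ctrl, 1582 to 2316 in FL1 and 1918 to 2540 over both lines. The highest counts in estrus, for the interaction, for the stages in ctrl and over both lines were those without ctrl estrus replicate 5. The cause of these changes was not tested.

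The groups share the replicate numbers 1 to 5, and the labels do not say whether same-numbered animals belong together. The correlation of same-numbered libraries, after subtraction of the group means, was -0.095 to 0.20, over 0.1 in 4 of 30 cases. With the replicate block, 2 members were past the threshold for the interaction and 0 for the stages in ctrl, and the counts for the other comparisons were unchanged at 1 in estrus, 3 in diestrus and 5 between the stages over both lines. Precision was limited by counts below 100 for *Klf4*, and the 0 of 30 relations with the endothelial, luteal and immediate early scores rest on 20 libraries. Replicate pairs differed by a chi-square per gene of 6.32 to 46.6, so none was a repeat of another. The highest values were those of ctrl estrus replicate 5 with replicates 1, 3 and 4 of its group (35.9, 46.6 and 41.6). Over all genes this library thus stood apart from these 3.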
